A study of Mus musculus with 12 samples.

Results

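The genes of the spliceosomal snRNP and Lsm proteins were compared between pancreatic tumors of young and old mice. They were taken as the protein-coding genes whose symbol begins with Snrp, with Lsm and a digit, or with Sf3a or Sf3b, leaving out Snrpn, which gave 33 of the 47643 genes in the table. All 33 passed the filter on low counts and were among the 16013 genes tested. They comprise 7 Sm core genes, 2 genes each for proteins of U1 and of U2, 3 genes of SF3a, 6 of SF3b, 7 of the Lsm2 to Lsm8 ring and 6 other Lsm genes. The rule does not take in the symbols that begin with Snrnp, nor the Prpf genes of U4, U5 and U6, which are described at the end among the related splicing genes.

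Small nuclear ribonucleoproteins (snRNPs) are the particles of RNA and protein from which the spliceosome, the machine that removes introns, is assembled. Sm proteins close into a ring around the U1, U2, U4 and U5 RNAs, while a ring of the related Lsm2 to Lsm8 proteins binds the end of U6 RNA. U1 recognises the start of an intron and U2 its branch point, where the SF3a and SF3b complexes hold U2 in place. When Lsm1 takes the place of Lsm8, the ring works in the cytoplasm in the decapping of mRNA. SF3B1, the largest SF3b subunit, is a recurrent target of mutation in human blood cancers and some solid tumors.

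RNA was sequenced in bulk after poly(A) selection from 12 pieces of pancreatic tumor, 6 labelled Young tumor and 6 labelled Old tumor. All carried KPC4662, a mouse pancreatic ductal adenocarcinoma line, so both ages share the genotype of 1 tumor line and differ by the age group of the host. The labels used here give no age, strain, sex, route or time of implantation and no treatment, and whether the pieces are from separate mice is not stated, so the p-values measure the spread between these pieces. Libraries held 17.8M to 24.1M counts. The small nuclear RNAs themselves are not polyadenylated and were not analysed here.

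The labelled cell type, epithelial, was checked against its markers, and all 8 epithelial genes (keratins, Epcam, Cdh1, Cldn4 and Muc1) had at least 162 counts in every library. Their summed level was 5288 to 9879 CPM (counts in proportion to the scaled size of each library) in young and 5039 to 8186 CPM in old tumors. Every fibroblast and endothelial marker was detected in each library too, with sums of 1441 to 3564 against 1258 to 9623 CPM and of 67.2 to 114 against 67.7 to 289 CPM. All 8 fibroblast and all 5 endothelial genes had fold changes above 0, and 0 passed the test with edgeR (2 of each list at an unadjusted p under 0.05). In bulk tissue, fewer cells of a type and less RNA per cell cannot be told apart.

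In old tumors 12 of the 33 genes were lower and 0 were higher with edgeR's quasi-likelihood test at an adjusted p under 0.05. Among all tested genes 1.47% were lower and 0.793% were higher by the same rule. The decreases were modest, from 0.28 for Snrpc to 0.64 for Snrpe on the log2 scale. An unadjusted p under 0.05 with a lower level in old tumors was reached by 21 of the 33, beside 10.4% of all tested genes. With a higher level 0 members reached it, beside 1713 of the 16013 tested genes. With DESeq2 and with limma-voom 0 members passed as higher at an adjusted p under 0.05, and Sf3b1 alone reached an unadjusted p under 0.05 as higher with limma-voom. The fold change was below 0 for 30 of the 33, with a median of -0.29, whereas 45.8% of all tested genes lay below 0 and their median was 0.03. On log2(TPM + 1) 24 of the 33 lay below 0, and 29 lay below the median of all genes, which was then 0.13. By limma on that scale 14 members reached an unadjusted p under 0.05 as lower and 3, Sf3a1, Sf3b1 and Lsm11, as higher, beside 617 and 3533 of the 16013 tested genes. For 11 members all 6 old libraries lay below all 6 young ones, which held for 1.97% of all tested genes. The reverse held for 0 members and for 0.999% of all tested genes.

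**Figure D1:**
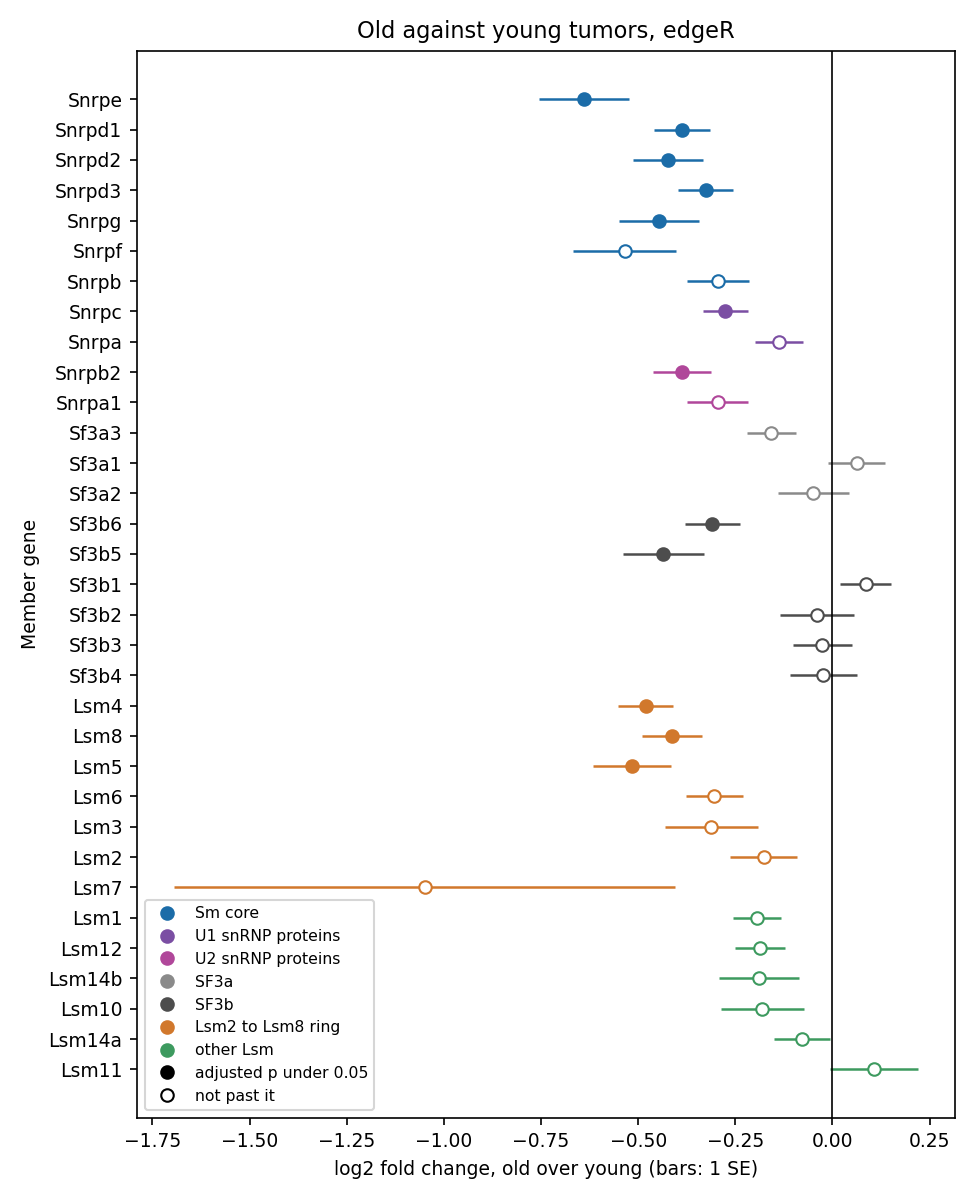
Log2 fold change of old over young tumors for each of the 33 genes (x axis) by class, with bars of 1 standard error; filled points passed an edgeR adjusted p of 0.05. All 7 Sm core genes and all 7 genes of the Lsm2 to Lsm8 ring lie left of 0, whereas the SF3a and SF3b genes lie on both sides of it, between -0.44 and 0.09.

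The number of calls depended on single libraries, and the adjusted p-values of the 12 ran from 0.0195 to 0.048. In place of 12, the number of members lower was 1 when Young tumor 1 was left out, 4 with Young tumor 2 or Young tumor 4 left out, 3 with Young tumor 5 and 6 with Young tumor 6 left out. The omission of Old tumor 2 or of Old tumor 3 left 0, and that of Old tumor 4, Old tumor 5 or Old tumor 6 left 1. Dropping Young tumor 3 gave 13 and dropping Old tumor 1 gave 16. Calls over all tested genes moved too: in place of 235, 7, 64, 286, 39, 41 and 87 were lower without Young tumor 1 to 6 in turn. Without Old tumor 1 to 6 in turn, 673, 10, 0, 24, 18 and 23 of all tested genes were lower. Unadjusted p under 0.05 was reached as lower by 19 to 22 members in each of these 12 fits, beside 8.87% to 13.2% of all tested genes. All 12 called members kept a fold change below 0 in all 29 other fits. Old tumor 1 had the smallest decrease of the old libraries, with a mean over the members 0.20 below the young mean on the log2 scale. In Old tumor 6, in which Lsm7 had 0 counts, that mean was 0.40 below, and 0.24 below without Lsm7. Without Lsm7 the mean over the other 32 was 0.20 to 0.28 below in the 6 old libraries.

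**Figure D2:**
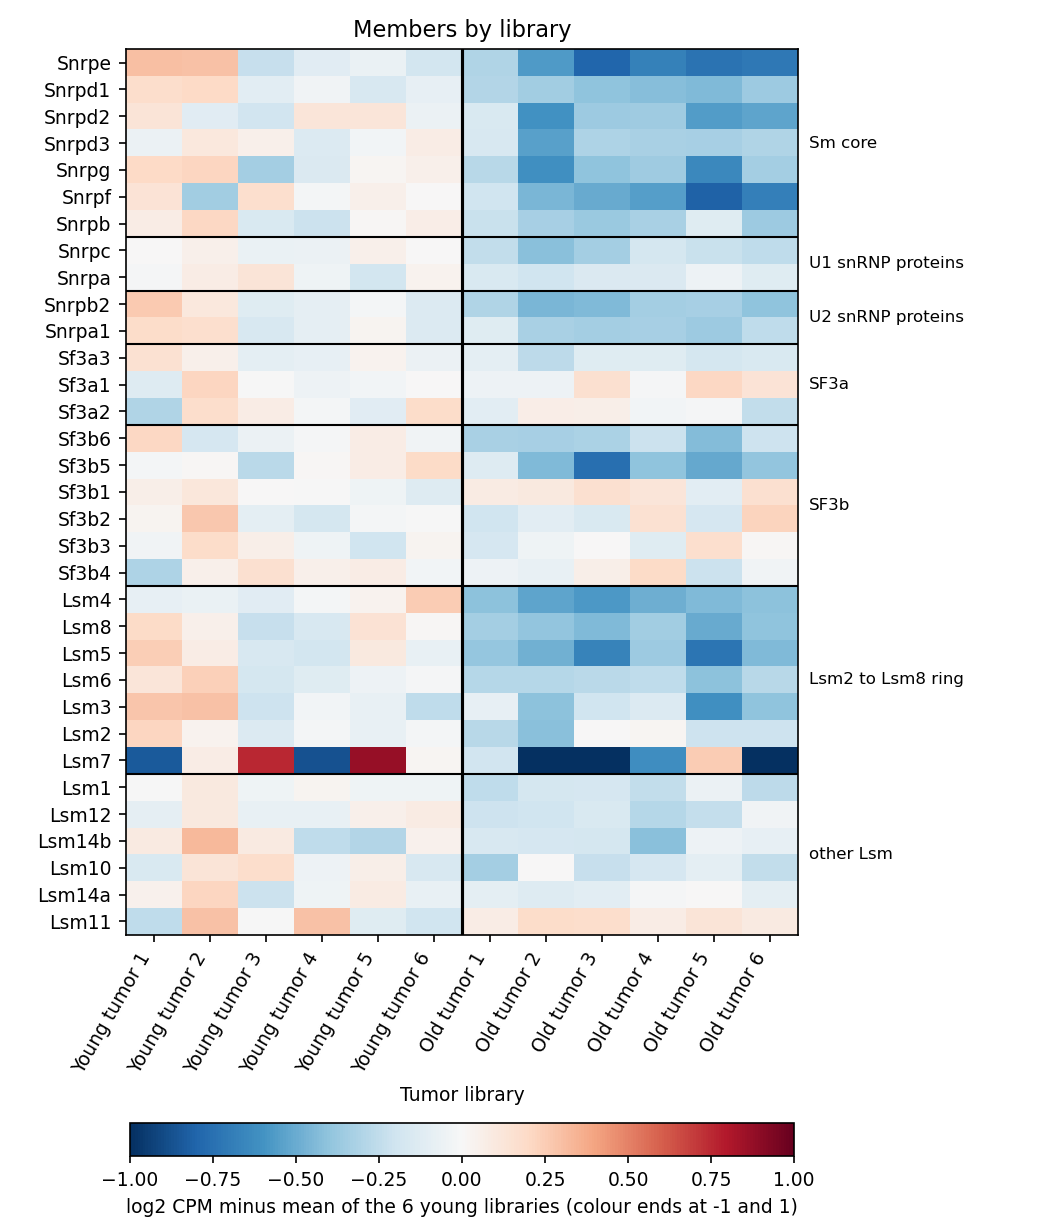
Log2 CPM of each gene in each of the 12 libraries minus the mean of the 6 young libraries, blue for lower and red for higher. Young tumor 2 held the highest value of 14 of the 33 genes and Old tumor 5 the lowest of 9, and the rows of the Sm core and the Lsm2 to Lsm8 ring are blue across most old libraries.

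Of the 7 Sm core genes 5 were lower (Snrpe, Snrpd1, Snrpd2, Snrpd3 and Snrpg), beside 1.47% of all tested genes. All 7 reached an unadjusted p under 0.05 as lower, beside 10.4% of all tested genes, and the median log2 fold change was -0.42. Their summed transcript level, in TPM (transcript abundance that takes account of length, with the same sum in every library), was 976 to 1250 in young and 850 to 965 in old tumors, ranges that did not overlap. Within the ring SmB, SmD1, SmD2, SmD3, SmE, SmF and SmG sit side by side in fixed proportion.

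Snrpe, which encodes SmE and lies at chromosome 1, 133603871 to 133610291 (GRCm38), ranged from 58.2 through a median of 64.3 to 84.3 CPM in young and from 39.5 through 42.3 to 55.4 CPM in old tumors. All old libraries lay below all young ones, and Old tumor 1 was the highest of the old. The log2 fold change was -0.64 (SE 0.12, with adjusted p = 0.030 in edgeR). Among the called members this was the largest change, and the level fell by 35.8%. Snrpd1, for SmD1, ranged from 82.3 through 88.5 to 105 CPM in young and from 67.7 through 70.4 to 74.9 CPM in old tumors, again without overlap. The change was -0.39 (SE 0.072, with adjusted p = 0.030 in edgeR), with old libraries much tighter (coefficient of variation 3.77%) than young ones (10.7%).

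Snrpd3, for SmD3 (chromosome 10, 75517551 to 75537381), ranged from 51.0 through 56.6 to 60.4 CPM in young and from 38.5 through 45.1 to 50.1 CPM in old tumors. The ages did not overlap, though Old tumor 1 came within 1 CPM of Young tumor 4. Its log2 fold change was -0.33 (SE 0.071, with adjusted p = 0.037 in edgeR). Snrpd2, for SmD2 (chromosome 7, 19149722 to 19153542), ranged from 81.3 through 94.96 to 102 CPM in young and from 61.0 through 68.4 to 83.5 CPM in old tumors. Old tumor 1 lay above the lowest young library, Young tumor 3, and so the ages overlapped. The log2 fold change of Snrpd2 was -0.42 (SE 0.090, with adjusted p = 0.035 in edgeR). Snrpg, for SmG (chromosome 6, 86371304 to 86379328), ranged from 47.4 through 61.5 to 69.7 CPM in young and from 38.3 through 46.2 to 49.5 CPM in old tumors. Here too Old tumor 1 overlapped Young tumor 3, and the log2 fold change was -0.45 (SE 0.10, with adjusted p = 0.044 in edgeR).

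The other two Sm genes did not pass. Snrpb, for SmB and the longer SmB', was at -0.29 (SE 0.079, with adjusted p = 0.061 in edgeR), from 149 through 178 to 200 CPM in young and 134 through 138 to 159 CPM in old tumors. Snrpf, for SmF, was at -0.53 (SE 0.13, with adjusted p = 0.051 in edgeR). In both genes the ages overlapped, although no old library reached the young median. Snrpn, the paralog of Snrpb that is best known from neurons and stands outside the set, was low at 0.463 through 0.661 to 0.972 CPM in young and 0.255 through 0.726 to 2.12 CPM in old tumors. Its log2 fold change was 0.37 (SE 0.43, with adjusted p = 0.66 in edgeR), and -0.17 without Old tumor 1.

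**Figure D3:**
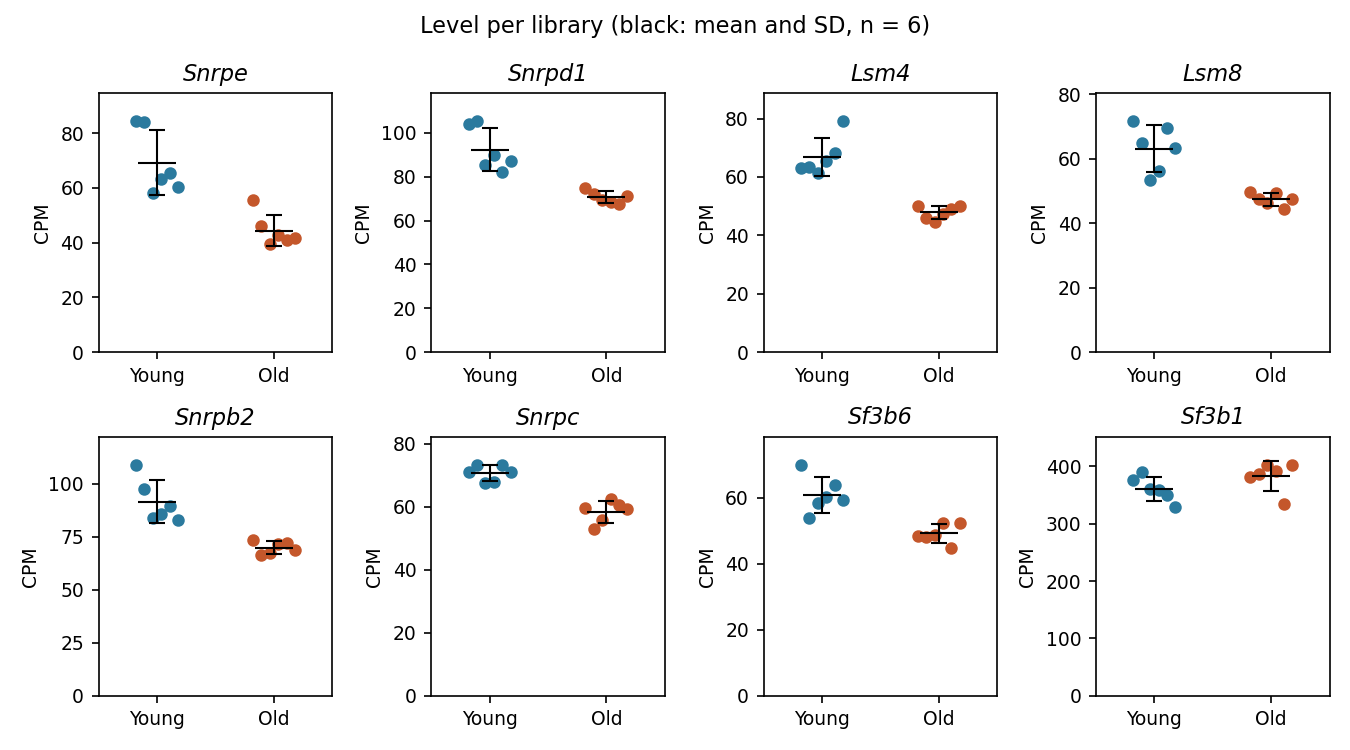
CPM of 8 of the genes in each library (points), with the mean and SD of the 6 libraries of each age in black and the y axis from 0. The 7 genes shown that were lower in old tumors are ones whose ages do not overlap, as in 1.97% of all tested genes. Snrpe, for example, was at 58.2 to 84.3 against 39.5 to 55.4 CPM. The ages of Sf3b1 overlap, as do those of Snrpd2, Snrpg and Sf3b5, which were lower but are not shown.

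Short coding sequences with processed copies elsewhere in the genome are common among these genes, and such copies can take or give reads. In GENCODE vM21 the coding sequence of 12 members matched at least 1 other annotated gene at 95% identity or more over 100 bases or more. Snrpf is the Sm gene with the largest share of such reads: 252 of 255 matched coding bases are identical to Gm13092, a processed pseudogene (chromosome 4, 150315177 to 150315436, minus strand), which was assigned 177% of the counts of Snrpf itself. The first 150 matched bases of the 2 genes, from coding base 4 of Snrpf, show how little separates them, with the differing bases in capitals.

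Snrpf: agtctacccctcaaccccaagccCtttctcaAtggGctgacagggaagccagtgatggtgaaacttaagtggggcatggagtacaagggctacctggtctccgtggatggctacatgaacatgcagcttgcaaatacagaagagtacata

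Gm13092: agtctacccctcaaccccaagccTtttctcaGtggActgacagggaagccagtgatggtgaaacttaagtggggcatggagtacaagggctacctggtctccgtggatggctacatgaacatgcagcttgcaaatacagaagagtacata

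Gm13092 itself was at -0.50 (SE 0.13, with adjusted p = 0.053 in edgeR), close to the -0.53 of Snrpf. With the counts of both added, the level ran from 22.8 through 28.4 to 29.6 CPM in young and from 15.9 through 19.1 to 24.3 CPM in old tumors, and the log2 fold change was -0.52 (SE 0.10, with adjusted p = 0.033 in edgeR). Adding the counts of all such copies to their members, an alternative chosen after the data were seen, gave 14 members lower in place of 12, beside 1.49% of all genes tested that way. The additions were Snrpf and Lsm6. The copies of Lsm6 held only 0.612% of its own counts, and its adjusted p in edgeR went from 0.051 to 0.049. For Snrpg, all 228 coding bases are identical in Gm8186 (chromosome 17, 26098991 to 26099221), and the sum was at -0.46 (SE 0.10, with adjusted p = 0.037 in edgeR). For Snrpe the sum with its copy Snrpert was at -0.64 (SE 0.11, with adjusted p = 0.030 in edgeR), so neither call was lost when the reads of the copy were added.

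U1 and U2 proteins each had 1 of 2 genes lower, beside 1.47% of all tested genes. Snrpc encodes U1-C, which helps U1 pair with the start of the intron (chromosome 17, 27838150 to 27851968). It ranged narrowly, from 67.5 through 70.9 to 73.3 CPM in young and from 52.8 through 59.4 to 62.4 CPM in old tumors. The ages did not overlap, and the log2 fold change of -0.28 (SE 0.058, with adjusted p = 0.035 in edgeR) was the smallest of the 12 calls, with the smallest SE. Snrpa, for U1-A, was at -0.14 (SE 0.062, with adjusted p = 0.22 in edgeR), and no old library reached the young median. The ratio of Snrpc to Snrpa in TPM was 1.23 to 1.83 in young and 1.205 to 1.63 in old tumors, so it overlapped.

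Snrpb2 encodes U2-B'' and Snrpa1 its partner U2-A', which together bind a stem loop of U2 RNA. Snrpb2 (chromosome 2, 143063039 to 143072853) ranged from 82.7 through 87.6 to 109 CPM in young and from 66.1 through 70.2 to 73.6 CPM in old tumors, without overlap. On the log2 scale it changed by -0.39 (SE 0.074, with adjusted p = 0.032 in edgeR). Snrpa1 was at -0.30 (SE 0.078, with adjusted p = 0.061 in edgeR), from 39.8 through 43.6 to 50.6 CPM in young and 34.5 through 35.4 to 40.8 CPM in old tumors. Its ages overlapped by Old tumor 1 alone, which lay above Young tumor 3 and Young tumor 6.

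The SF3b genes were split. The small SF3b subunits Sf3b5 and Sf3b6 were lower in old tumors, whereas the 4 other SF3b genes and the 3 SF3a genes did not pass, and the medians of SF3a and SF3b were -0.05 and -0.03. Summed over all 9 genes, TPM was 516 to 608 in young and 550 to 646 in old tumors. Those ranges overlap, in contrast with the sums of the Sm core and the Lsm2 to Lsm8 ring.

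Sf3b6 encodes the p14 subunit, which touches the branch point adenosine (chromosome 12, 4817544 to 4827659). It ranged from 53.9 through 59.7 to 70.0 CPM in young and from 44.8 through 48.5 to 52.4 CPM in old tumors, without overlap. Its log2 fold change was -0.31 (SE 0.071, with adjusted p = 0.044 in edgeR). Sf3b5, for a subunit of about the size of an Sm protein (chromosome 10, 13005343 to 13009183), ranged from 22.6 through 27.5 to 31.1 CPM in young and from 16.1 through 20.3 to 24.9 CPM in old tumors. Old tumor 1 overlapped Young tumor 3, and the log2 fold change was -0.44 (SE 0.10, with adjusted p = 0.048 in edgeR).

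Sf3b1, the scaffold subunit and the SF3b gene with the most counts, ranged from 330 through 360 to 390 CPM in young and from 334 through 389 to 403 CPM in old tumors. The ages overlapped, and 1 of 6 old libraries lay below the young median. Its log2 fold change was 0.09 (SE 0.066, with adjusted p = 0.48 in edgeR). Sf3b2, the most abundant SF3b gene per length at 132 TPM, ranged from 234 through 262 to 318 CPM in young and from 230 through 241 to 308 CPM in old tumors (log2 fold change -0.04, SE 0.096, with adjusted p = 0.84 in edgeR). Sf3b3 and Sf3b4 were at -0.03 and -0.02. The ratio of Sf3b6 to Sf3b1 in TPM was 0.741 to 1.03 in young and 0.601 to 0.707 in old tumors, ranges that did not overlap; this pair was chosen with both fold changes known.

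Among SF3a genes, Sf3a3, for a subunit that binds the U2 particle, ranged from 49.8 through 52.9 to 59.3 CPM in young and from 44.4 through 48.5 to 49.8 CPM in old tumors. The ranges overlapped only at their edges, and the log2 fold change was -0.16 (SE 0.062, with adjusted p = 0.17 in edgeR). Sf3a1 and Sf3a2 were at 0.06 (SE 0.073) and -0.05 (SE 0.092), with both ages spread over the same levels. Sf3a1 turned to -0.02 once a trend with gene length was removed, and Sf3b1 to -0.06. On log2(TPM + 1) Sf3a2, Sf3b2, Sf3b3 and Sf3b4 were above 0, at 0.13, 0.093, 0.11 and 0.12, near or below the 0.13 of all genes, while Sf3a1 and Sf3b1 were above it, at 0.21 and 0.27.

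Of the 7 genes of the Lsm2 to Lsm8 ring 3 were lower (Lsm4, Lsm5 and Lsm8), all 7 had fold changes below 0 with a median of -0.41, and their summed level was 653 to 769 TPM in young and 573 to 634 TPM in old tumors. Taken with the Sm core, 8 of 14 ring genes were lower and all 14 lay below 0, beside 1.47% and 45.8% of all tested genes. Of the 9 SF3a and SF3b genes 2 were lower and 7 lay below 0. The difference between the groups of genes was not tested.

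Lsm4 (chromosome 8, 70673248 to 70678752), whose protein carries a long arginine and glycine tail found in cytoplasmic granules, had the smallest p of all 33 genes. It ranged from 61.4 through 64.4 to 79.1 CPM in young and from 44.5 through 48.2 to 50.1 CPM in old tumors, with a wide gap between the ages. Its log2 fold change was -0.48 (SE 0.071, with adjusted p = 0.0195 in edgeR), and it was the 1 member still lower when Young tumor 1, Old tumor 4, Old tumor 5 or Old tumor 6 was left out. Lsm8 sets the nuclear ring apart from the cytoplasmic one (chromosome 6, 18848579 to 18855751). Its level ran from 53.4 through 64.2 to 71.7 CPM in young and from 44.3 through 47.6 to 49.6 CPM in old tumors, without overlap (log2 fold change -0.41, SE 0.077, with adjusted p = 0.030 in edgeR).

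Lsm5 (chromosome 6, 56701063 to 56704710) ranged from 20.4 through 23.2 to 27.6 CPM in young and from 13.9 through 16.8 to 17.96 CPM in old tumors. The ages did not overlap, and the log2 fold change was -0.52 (SE 0.10, with adjusted p = 0.032 in edgeR). Its sum with the processed pseudogene Gm7846 was at -0.49 (SE 0.10, with adjusted p = 0.033 in edgeR). Lsm6, the most abundant gene of this ring per length at 125 TPM, ranged from 54.0 through 59.7 to 72.1 CPM in young and from 45.9 through 50.2 to 51.2 CPM in old tumors. Its ages did not overlap either, yet its adjusted p lay just above the threshold (log2 fold change -0.30, SE 0.074, with adjusted p = 0.051 in edgeR). Neither Lsm3 (-0.31, SE 0.12) nor Lsm2 (-0.18, SE 0.087) passed.

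Lsm7 cannot be read from its own row. Its 309 coding bases are identical in Gm10146, a copy annotated as protein coding on the same chromosome (chromosome 10, 78393320 to 78393628, plus strand). The row of Lsm7 held 0 to 186 counts per library, with 0 in Old tumor 6, and that of Gm10146 held 271 to 483, so Lsm7 was given 0% to 37.8% of the sum. Its first 150 coding bases, which Gm10146 shares base for base, are shown because no read inside them can be placed in one gene and not the other.

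Lsm7: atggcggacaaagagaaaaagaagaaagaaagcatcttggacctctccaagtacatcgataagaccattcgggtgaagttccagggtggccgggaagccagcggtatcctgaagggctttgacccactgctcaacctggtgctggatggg

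The separate row of Lsm7 gave a log2 fold change of -1.05 with an SE of 0.65 (edgeR adjusted p = 0.37), the widest error of the 33. The sum of both genes was far steadier, from 20.9 through 23.6 to 26.6 CPM in young and from 15.8 through 17.3 to 21.4 CPM in old tumors. It was at -0.37 (SE 0.095, with adjusted p = 0.056 in edgeR), near the median of its ring, and did not pass.

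Of the 6 other Lsm genes 0 passed as lower or higher, 5 lay below 0 and the median was -0.18. Among them 2, Lsm1 and Lsm12, reached an unadjusted p under 0.05 as lower, beside 10.4% of all tested genes. These 2 passed as lower with DESeq2, beside 852 of the 16013 tested genes. Lsm1 (chromosome 8, 25785288 to 25803975), which defines the decapping ring, ranged from 33.1 through 33.7 to 36.6 CPM in young and from 28.4 through 29.5 to 32.8 CPM in old tumors. Its ages did not overlap, though by less than 1 CPM, and the log2 fold change was -0.19 (SE 0.061, with adjusted p = 0.095 in edgeR). The ratio of Lsm8 to Lsm1 in TPM was 4.62 to 6.13 in young and 3.80 to 4.96 in old tumors, ranges that overlapped. Lsm14a, the most abundant of this class at 87.0 TPM, codes for a protein of cytoplasmic mRNA granules and ranged from 112 through 130 to 151 CPM in young and from 119 through 121 to 130 CPM in old tumors (log2 fold change -0.08, SE 0.071, with adjusted p = 0.56 in edgeR). Lsm10 and Lsm11, which replace SmD1 and SmD2 in the U7 snRNP that trims histone mRNA, were at -0.18 (SE 0.11) and 0.11 (SE 0.11), and neither passed.

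Levels per length differed widely within the set. By mean TPM over all libraries Snrpg (232), Snrpb (228), Snrpe (207) and Snrpd1 (169) led, and Snrpf (17.01), Lsm7 (15.3), Sf3b5 (9.96) and Lsm11 (3.74) came last. Snrpg and Snrpb, neighbours at the top, differed by less than their spread (252 ± 36.5 and 241 ± 25.9 TPM in young tumors, SD, n = 6). So did Lsm2 and Lsm3 (104 ± 6.77 and 106 ± 17.1 TPM in young tumors, SD, n = 6). Snrpf and Lsm7 stand low on this scale with most of the shared reads in their copies. As a share of all counts the 33 genes made up 0.245% to 0.275% in young and 0.219% to 0.244% in old libraries. These ranges barely stayed apart, with Young tumor 5 at 0.24451% and Old tumor 6 at 0.24397%.

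Short genes were called lower more often than long ones, and most of these genes are short. Of the 33, 24 had an exon length under the median of all tested genes, 4022 bp, and 10 of those were lower, with all 24 below 0. Among all tested genes under that length 200 of 7985 (2.5%) were lower, out of 235 of 16013 at any length. Of the 9 longer members 2 were lower, Snrpc and Lsm8. Exon length here is the union of exons over all annotated transcripts, which can exceed that of the transcript expressed. Snrpc (6521 bp) had young means of 70.6 CPM and 128 TPM, and Sf3a1 (6147 bp) had 68.6 CPM and 24.5 TPM. Lsm8 (4199 bp) had 63.2 CPM and 121 TPM, so the union length may overstate that of Snrpc and Lsm8. Set beside genes of their own length decile, 30 of the 33 lay below the decile's median, by a median of 0.27 on the log2 scale. After each library was corrected for this trend with length, 5 members were lower (Snrpe, Snrpd2, Snrpc, Lsm4 and Lsm8), beside 0.6% of all tested genes, 31 lay below 0 and the median was -0.30. Snrpd1 was then at -0.36 (edgeR adjusted p = 0.078), Lsm5 at -0.41 (edgeR adjusted p = 0.081) and Snrpb2 at -0.38 (edgeR adjusted p = 0.054). Snrpc moved from -0.28 to -0.36 and Lsm8 from -0.41 to -0.44. All 5 calls after the correction, and the comparison by decile, rest on the union length. It may overstate other members as well. Snrpe (1372 bp) had young means of 69.2 CPM and 243 TPM, and Lsm4 (1038 bp) had 66.7 CPM and 125 TPM.

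**Figure D4:**
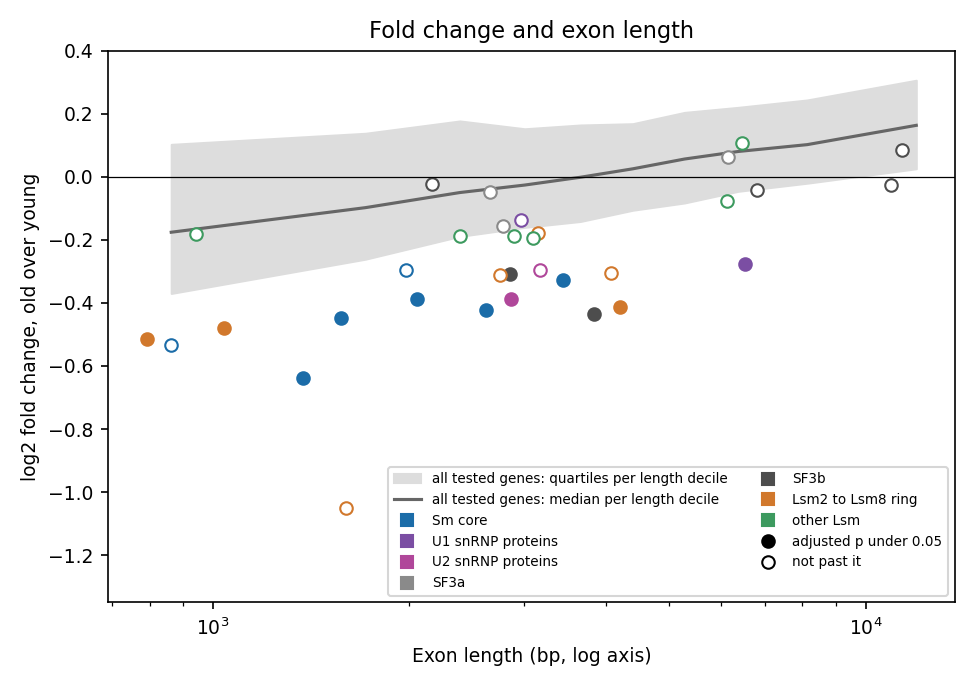
Log2 fold change of old over young tumors against exon length (log axis), with the median (line) and interquartile range (grey) of all tested genes in each length decile. Of the 33 genes 30 lie below the line for their length; filled points passed an edgeR adjusted p of 0.05.

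A list of cell cycle genes moved with age as well. Of its 25 genes of replication and mitosis 10 were lower, beside 1.47% of all tested genes, with a median of -0.47. The list's mean ran from 5.61 to 6.03 log2 CPM in young and from 4.91 to 5.51 in old tumors, without overlap. With that mean as a covariate 0 members passed with edgeR, 8 reached an unadjusted p under 0.05 as lower, 25 lay below 0 and the median was -0.18. In that fit 3.32% of all tested genes reached an unadjusted p under 0.05 as lower, 43.5% lay below 0 and their median was 0.05. Of all tested genes 0 passed as lower there. The part of the cell cycle mean in the decrease of the snRNP genes cannot be told apart from age here. Summed acinar cell markers were 12.1 to 62.1 CPM in young and 12.2 to 18.9 CPM in old tumors, with Cpa1, Cpb1, Cela2a, Pnlip, Try4 and Amy2a5 at 0 counts in at least 1 library, and 2 of the 9 passed the filter. Summed leukocyte markers were 205 to 387 CPM in young and 186 to 470 CPM in old tumors. The part of these other cells in the results was not tested.

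Of the genes that work with these proteins 2 passed. Over 10 lists of other splicing and decapping genes, 126 were tested, of which 2 were lower and 0 were higher. Of all tested genes 1.47% were lower and 0.793% higher. Below 0 lay 86 of the 126, beside 45.8% of all tested genes, and their median was -0.09. At an unadjusted p under 0.05, 33 were lower and 11 higher, beside 1668 and 1713 of the 16013 tested genes. DESeq2 called 22 lower and 3 higher, beside 852 and 573 of all tested genes. With limma-voom 9 were lower and 4 higher, beside 559 and 418. The 2 were U2af1, for the small U2AF subunit that reads the end of the intron, and Bud31, of the activated spliceosome. U2af1 ranged from 67.7 through 71.3 to 88.4 CPM in young and from 46.9 through 57.4 to 64.9 CPM in old tumors (log2 fold change -0.40, SE 0.096, with adjusted p = 0.047 in edgeR). Bud31 ranged from 90.1 through 97.5 to 106 CPM in young and from 71.4 through 80.2 to 87.6 CPM in old tumors (log2 fold change -0.28, SE 0.065, with adjusted p = 0.044 in edgeR). In neither did the ages overlap.

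**Figure D5:**
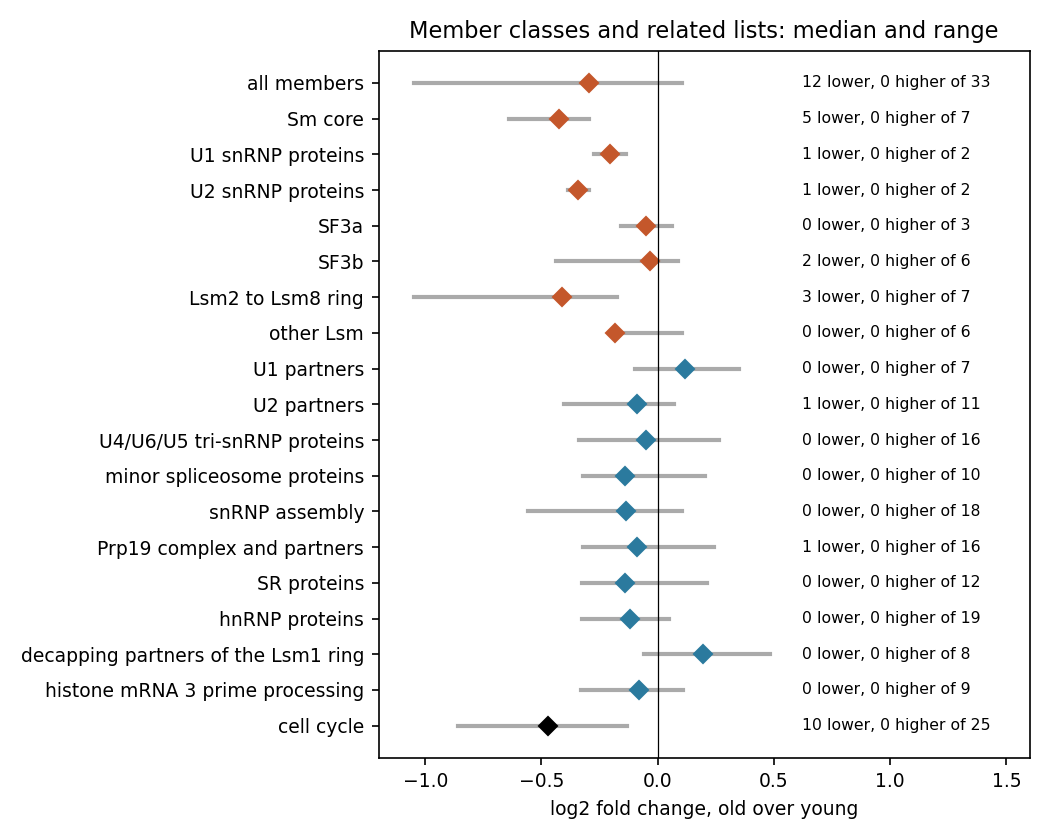
Median (diamond) and range (line) of the log2 fold change of old over young tumors in each class of the 33 genes (orange), each related list (blue) and the cell cycle list (black), with counts past an edgeR adjusted p of 0.05. The medians of the Sm core (-0.42) and the Lsm2 to Lsm8 ring (-0.41) lie below those of all 10 related lists, which run from -0.14 to 0.20.

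In the other 8 lists 0 genes passed in either direction with edgeR. The counts by list at an unadjusted p under 0.05, here and below, stand beside 1668 lower and 1713 higher of the 16013 tested genes. Of the 16 proteins of the U4, U5 and U6 particles, 11 lay below 0 (median -0.05), 6 were lower and 2 higher at an unadjusted p under 0.05, and Snrnp27 had the smallest p (-0.31, SE 0.081, with adjusted p = 0.059 in edgeR). U1 partners, among them Snrnp70 and the Luc7-like genes, had 4 of 7 above 0 (median 0.12), with 2 higher and 0 lower at an unadjusted p under 0.05, led by Luc7l2 at 0.35 (SE 0.12, with adjusted p = 0.11 in edgeR). The genes that load Sm rings onto RNA, such as Smn1 and the Gemin genes, had 15 of 18 below 0 (median -0.13) and 5 lower at an unadjusted p under 0.05, with Gemin8 at -0.39 (SE 0.12, with adjusted p = 0.087 in edgeR). Minor spliceosome proteins had 7 of 10 below 0, with 3 lower at an unadjusted p under 0.05 and Zcrb1 at -0.32 (SE 0.093, with adjusted p = 0.079 in edgeR).

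Among splicing regulators, SR proteins had 10 of 12 below it and 3 lower at an unadjusted p under 0.05, with Srsf9 at -0.32 (SE 0.087, with adjusted p = 0.062 in edgeR), and hnRNP proteins had 16 of 19 below it and 7 lower by that measure, with Hnrnpab at -0.25 (SE 0.064, with adjusted p = 0.055 in edgeR). Histone mRNA processing genes, the partners of the U7 snRNP, had 5 of 9 below 0 and 1 lower at an unadjusted p under 0.05, the stem loop binding protein gene Slbp at -0.33 (SE 0.086, with adjusted p = 0.057 in edgeR). Of the 8 decapping partners of the Lsm1 ring 7 lay above 0 (median 0.20), with the exonuclease gene Xrn1 at 0.30 (SE 0.082, with adjusted p = 0.066 in edgeR). At an unadjusted p under 0.05, 5 were higher, beside 1713 of the 16013 tested genes. The median exon length of these partners was 7187 bp, against 2857 bp for the 33 genes.

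Promoter windows from 250 bases before to 50 after the start were given by RefSeq (GRCm38.p6) for 26 of the 33 genes, in 30 windows of 32851 in all. The letters CCGGAAGT, the core of an ETS family site, stood on either strand in windows of 5 of the 26 genes (Lsm5, Sf3a1, Sf3a3, Sf3b2 and Snrpe), or 20% of their windows, beside 3.89% of all windows. Of the 9 lower genes with a window 2 held it, and of the 17 others 3. CCAAT stood in 36.7% of the members' windows and 37.4% of all, CACGTG in 6.67% and 7.15%, TATAAA in 6.67% and 13.6%, and TTTCGCGC, an E2F type site, in 3.33% and 0.323%. The TTTCGCGC share is 1 window of 30, that of Snrpa, which did not pass. CACGTG stood in 2 windows, both of Snrpa, and 0 of the 9 lower genes held either motif. None of the 5 motifs is contained in another, and a match is a description of sequence only. Median GC content was 59.5% in the members' windows and 52.7% in all.

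The upstream parts of 3 lower genes (Lsm8, Lsm5 and Snrpb2) and of Sf3b1, which did not pass, are given so that they can be set side by side. Each is the stretch free of annotated exons, on the gene's strand, with any of the 5 motifs in capitals. They lie at chr6:18848385-18848578 (plus strand), chr6:56704711-56704949 (minus), chr2:143062819-143063038 (plus) and chr1:55027482-55027728 (minus).

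Lsm8: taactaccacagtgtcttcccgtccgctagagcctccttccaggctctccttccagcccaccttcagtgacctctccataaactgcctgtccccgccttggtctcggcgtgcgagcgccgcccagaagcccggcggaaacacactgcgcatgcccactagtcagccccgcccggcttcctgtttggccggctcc

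Lsm5: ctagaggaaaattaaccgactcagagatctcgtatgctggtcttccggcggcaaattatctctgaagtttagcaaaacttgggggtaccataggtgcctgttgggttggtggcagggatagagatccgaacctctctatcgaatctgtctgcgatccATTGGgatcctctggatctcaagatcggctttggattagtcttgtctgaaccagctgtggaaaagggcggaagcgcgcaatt

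Snrpb2: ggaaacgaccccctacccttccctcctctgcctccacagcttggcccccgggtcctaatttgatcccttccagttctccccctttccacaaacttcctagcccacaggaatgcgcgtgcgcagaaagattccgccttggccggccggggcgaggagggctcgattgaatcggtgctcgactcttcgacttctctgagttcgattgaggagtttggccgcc

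Sf3b1: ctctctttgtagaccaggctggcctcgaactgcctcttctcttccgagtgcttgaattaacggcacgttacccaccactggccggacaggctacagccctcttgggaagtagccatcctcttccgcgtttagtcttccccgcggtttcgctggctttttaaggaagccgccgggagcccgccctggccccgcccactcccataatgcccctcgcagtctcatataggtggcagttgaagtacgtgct

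In these 4 stretches the one match was CCAAT in Lsm5, read from the other strand as ATTGG, and the Lsm5 match to CCGGAAGT lay in the part of its window left out here.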

How the data were processed

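RNA from 12 tumor pieces, 6 per age, was poly(A)-selected and made into strand-specific libraries, per the labels' protocols. The submitters' processing notes name cutadapt 2.3, STAR 2.7.0d, RSEM 1.3.1 and build mm10. Which gene annotation and strand setting RSEM used is not given in the sources used here. Expected counts and TPM of 47643 genes were deposited by the authors. RSEM divides reads among similar genes, so copies were sought with blastn 2.17.0 in GENCODE vM21, which also gave exon lengths for 99.7% of tested genes and all coordinates.

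Expected counts were rounded and tested, old over young, with edgeR 4.0.16 (R 4.3.3; TMM, filterByExpr, two-sided quasi-likelihood test, Benjamini-Hochberg over 16013 genes, adjusted p under 0.05), after the code was tested on simulated data. The standard error is the log2 fold change divided by the root of F. CPM use TMM-scaled totals, with a prior count of 2 on the log scale. TPM served for levels between genes and for 2 alternatives in limma 3.58.1, with pseudocounts of 1 and 0.1. Alternatives were other scalings, filters, thresholds and tools (DESeq2 1.42.0, limma-voom), corrections for length or GC content (spline with 4 degrees of freedom), a cell cycle covariate, a replicate block and libraries left out. Merged copies and the omission of Young tumor 1 with Old tumor 3 were added after seeing the data.

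Values by library are given for members past the threshold and, per class, for those of smallest p and highest TPM, and for related lists the genes past the threshold or of smallest p; Snrpf, Snrpb, Snrpa1, Lsm7, Sf3b1 and others beyond this were chosen with their values known. The members and lists were chosen with earlier results of these data known.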

Additional observations from a re-analysis of the deposited data

Results flagged for a closer look

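In 5 of the 88 groups of 6 libraries checked (44 genes in 2 ages), 1 library lay far from the other 5, with a gap above Dixon's critical value for the group's range; chance gives about 1 such group in 20. Snrpf was at 7.85 CPM in Young tumor 2, against 9.82 to 11.2 CPM in the other young libraries. Sf3b1 was at 334 CPM in Old tumor 5, against 381 to 403 CPM in the other old libraries. Lsm6 was at 45.9 CPM in Old tumor 5, against 49.96 to 51.2 CPM in the others. Lsm14b was at 56.7 CPM in Old tumor 4, against 67.1 to 73.2 CPM, and U2af1 at 88.4 CPM in Young tumor 1, against 67.7 to 74.6 CPM.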

How the results depend on the processing

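The number of members lower (12) was within 1.5 times of that with DESeq2 (18), limma-voom (16), scaling by RLE (14), by upper quartile (12) or by totals (8), a filter of 1 CPM in 6 libraries (16), GC correction (14), merged copies (14), without Old tumor 1 and Old tumor 5 (13) and at an adjusted p under 0.1 (17). It was 7 with no filter, 5 with length correction, 3 on log2(TPM + 1) and on log2(TPM + 0.1), and 0 with a replicate block, with length correction and replicate block, with the cell cycle covariate, at an adjusted p under 0.01, and without Young tumor 1 and Old tumor 3, a pair chosen after seeing the data. Leaving out 1 library gave 0 to 16 members lower, 0 to 673 lower and 2 to 433 higher of all genes, and 0 to 12 lower and 0 to 3 higher related genes; 11 to 17 members then had all old below all young libraries and 0 to 1 all old above, beside 2.06% to 4% and 1.1% to 2.53% of all tested genes. No member passed as higher in any setting. The labels state no link between libraries of the same replicate number. Correlations of same-numbered libraries ran from -0.23 to 0.14, with 2 of 6 over 0.1. Of the young libraries 2 of 6 correlated best with their own number, so these values cannot decide whether the numbers pair the samples. With the block 0 members, 0 genes lower and 1 higher in all, and 0 related genes passed, while 19 members had an unadjusted p under 0.05 as lower; the same counts of calls came with length correction and block together.

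Of all genes (235 lower, 127 higher), total-count scaling gave 143 lower and 152 higher, log2(TPM + 1) 48 and 291, log2(TPM + 0.1) 44 and 312, DESeq2 852 and 573, limma-voom 559 and 418, no filter 110 and 41, the filter of 1 CPM 364 lower, length correction 96 and 15, GC correction 341 and 73, the cell cycle covariate 0 and 1, the omission of Old tumor 1 and Old tumor 5 399 and 343, that of Young tumor 1 and Old tumor 3 0 and 1, an adjusted p under 0.1 726 and 530, and one under 0.01 0 and 1. Related genes lower (2) and higher (0) were 5 lower with RLE, 4 and 1 with upper-quartile and 0 and 2 with total-count scaling, 22 and 3 with DESeq2, 9 and 4 with limma-voom, 0 lower with no filter, 8 lower with the filter of 1 CPM, 6 lower with GC correction, 0 and 1 with either TPM setting, 0 lower with the cell cycle covariate, 3 higher without Old tumor 1 and Old tumor 5, 0 lower without Young tumor 1 and Old tumor 3, 17 and 3 at an adjusted p under 0.1 and 0 lower under 0.01. TPM moved the median of all genes to 0.13 and 0.15, that of the members to -0.17 in both settings, and members without overlap to 7 below and 1 above; 24 members lay below 0 there, and 29 or 30 below the median of all genes. The members' median was -0.18 with the cell cycle covariate, where 8 had an unadjusted p under 0.05. Without Old tumor 1 and Old tumor 5, 17 members had all old below all young libraries and 1 all old above, beside 4.35% and 4.61% of all tested genes.

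Over all settings 22 members stayed below 0, 1 above it, and 10 took either sign, none of them called. Log2 fold changes of the other sign were, with length correction without and with the block, -0.015 and -0.016 for Sf3a1, -0.064 and -0.067 for Sf3b1, and 0.0065 and 0.0089 for Sf3b4. On log2(TPM + 1) and log2(TPM + 0.1) they were 0.13 and 0.14 for Sf3a2, 0.093 and 0.094 for Sf3b2, 0.11 and 0.11 for Sf3b3, 0.12 and 0.12 for Sf3b4, 0.013 and 0.014 for Lsm14b, and 0.0166 and 0.0168 for Lsm14a. With the cell cycle covariate they were 0.050 for Lsm2, 0.080 for Sf3b2, 0.049 for Sf3b3, 0.015 for Lsm3 and 0.016 for Lsm14a. Sf3b2 was at 0.018 with limma-voom and 0.042 without Old tumor 1 and Old tumor 5. With total-count scaling Sf3b3 was at 0.0019 and Sf3b4 at 0.0084; without Old tumor 1 and Old tumor 5 Sf3b4 was at 0.040 and Snrpn at -0.24. With 1 library left out the values ran from -0.097 to 0.015 for Sf3b2, from -0.065 to 0.0056 for Sf3b3, from -0.078 to 0.024 for Sf3b4 and from -0.17 to 0.56 for Snrpn. The causes were not tested.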
